A study of Drosophila melanogaster with 20 samples.

Results

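Brains of male Drosophila melanogaster on a diet with equal parts of protein and carbohydrate were compared with brains of females on a diet of the same ratio. The libraries were chosen by their labels of sex and diet, and 10 of the 20 libraries of the study belong to the comparison, 5 from males and 5 from females. All flies were wild-type (W1118) and 4 to 7 days old. The male diet, called HPLC for high protein and low carbohydrate, had protein to carbohydrate at 1:1 and 180 g/L. The female diet carried the same name and the same ratio of 1:1, but at 90 g/L. The study asks how the balance of nutrients relates to sleep, and its other 10 libraries come from males on a high-carbohydrate diet (LPHC, 0:1 at 180 g/L) and females on another (LPHC, 1:2 at 360 g/L). Sex, the concentration of the diet and the deposited table (each sex had its own) change together here, so they cannot be told apart. The labels do not say how many brains went into a library or whether the 5 of a group are separate fly cultures. The p-values therefore cover the spread from library to library alone, which may be technical.

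In flies the dose of X chromosomes decides whether the RNA-binding protein Sex-lethal (Sxl) is made. In females Sxl directs the splicing of transformer (tra), which in turn directs the splicing of doublesex (dsx) and fruitless (fru), the transcription factors that shape sex-specific tissues and behaviour. Sxl also represses male-specific lethal 2 (msl-2), so that only males assemble the complex that raises transcription of their single X chromosome. Downstream of dsx, the fat body of females makes yolk proteins, and fat body around the brain is known to carry several of the strongest sex-dependent transcripts of the fly head.

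RNA-seq gave 21733987 to 35077559 recovered reads per male library and 13901684 to 25106655 per female library. A level below is a normalised read count, that is, the recovered reads of a gene divided by a size factor computed over the 10 libraries with the 3 yolk protein genes left out. Levels are not divided by gene length, so they are compared between libraries and not between genes. Differences are males minus females on the log2(level + 1) scale, which understates the change of low genes, and a gene passed at a limma adjusted p under 0.05 with n = 5 libraries in each group. The labels of sex held: 11 genes of the Y chromosome were listed for males alone, with 26 to 44 reads in all per male library. Defining markers of neurons, glia and photoreceptors were all present. Markers of tissue outside the brain were present too, among them the photoreceptor rhodopsin gene ninaE with 192168 to 1217510 reads and the fat body storage protein gene Lsp2 with 11139 to 33170 reads per library. Such RNA moves with several results, and in bulk tissue fewer cells of a type and less RNA per cell cannot be told apart.

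A few libraries stood apart. Yolk protein genes took 12.3% to 15.1% of reads in the female libraries and 0.00666% to 0.00709% in 4 of the male libraries, but 0.118% in male replicate 4. Among female libraries, replicates 2 and 5 carried transcripts of the ovary. The oocyte thioredoxin gene dhd, which has no male value, had 0, 400, 18, 26 and 398 reads in female replicates 1 to 5. The yolk receptor gene yl had 0, 169, 10, 6 and 128 reads. The vitelline membrane gene Vm34Ca had 82 reads in replicate 2 and 0 to 3 in the others. All of them were listed for females alone. Leaving out these 3 libraries changed the counts of many gene lists, and both counts are given for a part of them. Of all genes, 1892 of 9767 tested were then called higher in males and 2081 in females, against 2538 and 2516 of 9945 before. Second counts are to be read beside these, as calls fell over all genes too. A list without a second count was not necessarily stable. The 3 were picked by yolk and ovary transcripts. Over all genes, yolk genes included, female replicates 3 and 4 differed most from the other females. Both stay in when the 3 are left out.

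At the top of the sex determination pathway, the gene-level signal of the switch genes barely separated the sexes. Sxl stood at 5872, 5191, 5626, 5593 and 5543 in the male libraries and at 7418, 6039, 5089, 7062 and 7048 in the female libraries. The groups overlapped only through female replicate 3, the lowest of the 10, and the difference of -0.22 (SE 0.09) missed the threshold with an adjusted p of 0.0543. It passed without that library (-0.31, adjusted p = 0.00099), as well as with edgeR (0.0441) and DESeq2 (0.0288). For tra the difference was -0.04 (SE 0.09), for its partner tra2 it was 0.00, for dsx -0.03 (SE 0.10) and for fru 0.15 (SE 0.10), none of them past the threshold. At the same total of reads with yolk genes tra (0.40), tra2 (0.44) and dsx (0.41) were positive, as all genes shifted together. Gene counts add up the male and female splice forms of Sxl, tra, dsx, fru and msl-2, so these values say nothing about splicing.

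Of 19 genes of the pathway tested, 4 were higher in males and 1 in females. The share higher in males lay below the 25.5% of all 9945 genes tested that were called in that direction, and 25.3% of all genes were called higher in females. Those higher in males were emc (0.52, SE 0.06), which counteracts the X-counting factors, her (0.39), whose maternal product helps to activate Sxl, and nito (0.26) and Ythdc1 (0.24), a splicing cofactor of Sxl and a reader of methylated RNA. The calls of nito and Ythdc1 were lost when single libraries were left out, nito without male replicate 3 or 5 or female replicate 1 or 2, and Ythdc1 without male replicate 1, 2, 4 or 5 or female replicate 2, 3 or 5. Higher in females was snf (-0.27, SE 0.07, turning to 0.17 at the same total of reads with yolk genes), which encodes a spliceosome protein that Sxl needs for its own splicing. With the 3 libraries that stood apart left out, 1 gene of the pathway was called in each direction.

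The dosage compensation genes showed 1 clear step. The msl-2 level was 1436, 1420, 1470, 1441 and 1397 in males and 725, 716, 622, 712 and 727 in females. No male library came near a female one, and the ratio of the means was 2.05 (log2 1.03, SE 0.06, adjusted p = 2.57e-09). Unr, an RNA-binding protein that takes part in msl-2 repression in females, was higher in males by 0.33 (SE 0.09). The other subunits of the complex differed less: mof, its histone acetyltransferase, by 0.24, msl-1, its scaffold, by 0.24, msl-3, which reads histone methylation, by 0.19 and mle, its RNA helicase, by 0.17. In all 6 of 8 tested genes were higher in males and 0 in females. The calls of msl-1 and msl-3 lay close to the threshold, at adjusted p of 0.0461 and 0.0481. That of msl-1 held when female replicate 3 or 5 was left out and was lost without any other single library. That of msl-3 was lost without male replicate 2, 3, 4 or 5 or female replicate 1, 4 or 5, and that of mof without male replicate 1 or 3. The chromatin kinase gene JIL-1 (-0.17) and the zinc finger gene Clamp (-0.05), which recruits the complex, did not pass, and both turned positive at the same total of reads with yolk genes (0.28 and 0.39). Of the 8, 3 were called higher in males without the 3 libraries that stood apart.

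**Figure D1:**
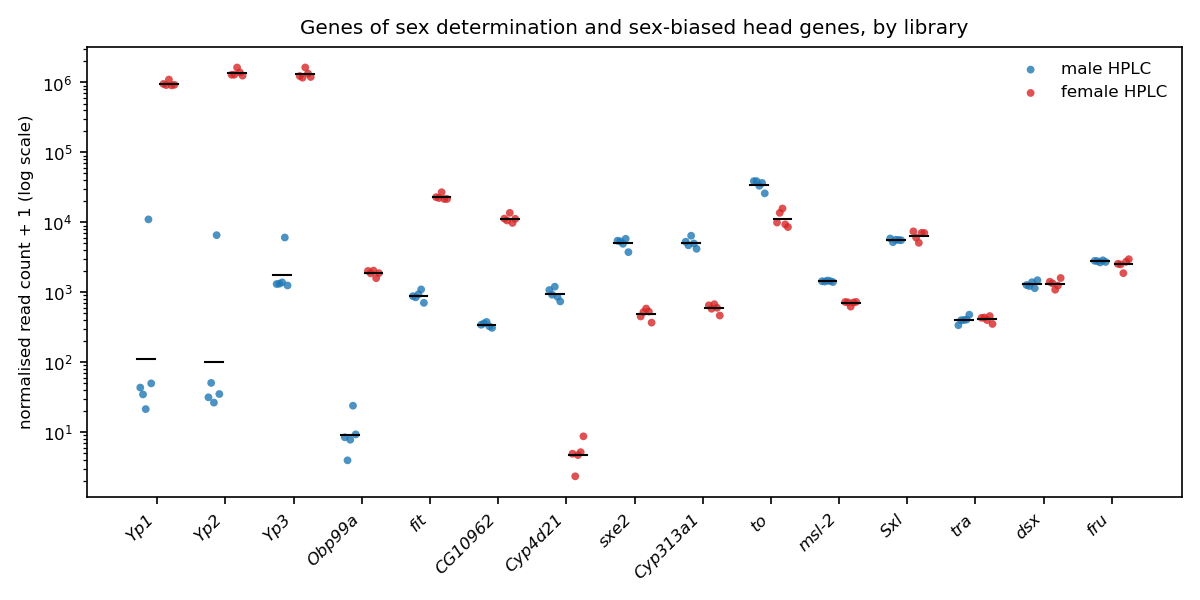
Normalised read count plus 1 (log axis) of 15 genes in each of the 5 male (blue) and 5 female (red) HPLC libraries, with a black bar at the mean of the log values. The yolk protein genes and Obp99a lie high in females, with male replicate 4 above the other male libraries, Cyp4d21 lies high in males, and Sxl, tra, dsx and fru overlap.

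The largest differences were in the yolk protein genes, which were high in females. Yp2, a yolk protein gene, stood at 30.4, 49.5, 25.4, 6549 and 34.0 in males and at 1287848, 1290670, 1637354, 1394680 and 1252553 in females (log2 -13.75, SE 1.14, adjusted p = 1.85e-07). Male replicate 4 lay far above the other males and far below any female. Without it the difference was -15.26 for Yp2, -14.72 against -13.06 for Yp1 and -9.96 against -9.51 for Yp3. In the other 4 male libraries Yp3 had 1249 to 1383 and Yp1 20.3 to 48.7.

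Other genes followed the same pattern with less spread. Obp99a, an odorant-binding protein gene expressed in head fat body, stood at 7.42, 2.95, 6.77, 22.9 and 8.28 in males and at 2016, 1864, 2040, 1587 and 1873 in females (log2 -7.71, SE 0.32, adjusted p = 1.57e-10). The groups lay far apart, and male replicate 4 was again the highest male. The gene fit (female-specific independent of transformer), which encodes a satiety hormone of the fat body, had a mean of 891 ± 143 (SD) in males and 23036 ± 2252 in females, 25.9-fold higher (log2 -4.70, SE 0.10). CG10962, an unnamed gene, was 33.1-fold higher in females (log2 -5.04, SE 0.08), at 341 ± 26.4 in males and 11316 ± 1439 in females. CG10814 differed by -8.73 (SE 0.53) and by -9.38 without male replicate 4, and CG7763 by -4.59 (SE 0.19). The remaining places among the 12 largest female-high genes went to stress factors: Diedel (-6.42), TotM (-5.82), TotC (-4.88) and TotB (-4.54).

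Among genes high in males, Cyp4d21 led. This cytochrome P450, also known as sxe1, acts in fat body and is linked to male courtship. It stood at 1074, 922, 1199, 858 and 737 in males and at 3.91, 1.33, 3.69, 4.17 and 7.70 in females, a ratio of the means of 230 (log2 7.64, SE 0.27, adjusted p = 3.33e-11). The 2 groups did not overlap, and every female library was below 10. The lipase gene sxe2 was 10.3-fold higher in males, at 5057 ± 799 (SD) and 489 ± 83.5 (log2 3.37, SE 0.13). Another cytochrome P450 gene, Cyp313a1, was 8.63-fold higher (log2 3.10, SE 0.11). The gene takeout (to), of the juvenile hormone binding protein family and known from male head fat body, stood at 34699 ± 5387 in males and 11446 ± 3107 in females (log2 1.63, SE 0.16). The rest of the 12 largest male-high genes were brv3 (3.54), an ion channel gene at 54.8 ± 5.45 in males, the mucin gene Muc14A (3.48), Hsp70Bb (2.62), CG14787 (2.53), the cuticle protein gene Cpr76Bc (2.48), CG11529 (2.41), CG11854 (2.35), CG30384 (2.26) and CG34227 (2.24). Of the 12 genes on the list of sex-biased head genes, Obp99b (-0.07, SE 0.09), Cyp6a20 (-0.07, SE 0.08), CG14661 (0.09) and Jhedup (-0.46, SE 0.74) did not pass. Jhedup varied from 4.23 to 82.3 among the male libraries and from 10.4 to 71.9 among the female ones.

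Over all genes, 5054 of 9945 passed (50.8%), 2538 higher in males (25.5%) and 2516 higher in females (25.3%), and 5601 had an unadjusted p under 0.05. The groups did not overlap for 3782 genes (38.0%). Differences of 2-fold or more were lopsided: 111 genes were higher in males (1.12%) and 532 in females (5.35%). The split of all calls depended on scaling. With libraries set to the same total of reads without the yolk genes, the median gene shifted by 0.23 towards males and 77.3% of 6555 calls were higher in males. With the yolk genes in the total the shift was 0.44 and the share 87.7% of 7967 calls, and at the same upper quartile they were 0.04 and 55.9%, against 50.2% with the size factors used here. The list medians below stand beside the median of all genes, 0.02. Relative to it, 38 of 39 list medians moved by under 0.05 across these scalings, and that of Turandot genes by 0.06.

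Genes that mark cell types of the head split by tissue. Counts are over list members that passed a filter on low values (a level of 10 or more in at least 5 libraries), which a gene near 0 in one sex passes only through the other. They overlap where a gene is on several lists. Each count is to be read beside the shares of all genes, 25.5% called higher in males and 25.3% higher in females. For a count without the 3 libraries that stood apart, the counts of all genes were 1892 and 2081 of 9767. Of 23 neuron and synapse markers, 22 were higher in males (18.1% of all genes were higher in males without overlap, and 21 of these 23), with a median of 0.54. Snap25 (0.61, SE 0.06) and nSyb (0.60), which encode parts of the synaptic vesicle fusion machinery, the glutamate transporter gene VGlut (0.58) and the GABA synthesis gene Gad1 (0.56) had the smallest p. Syx1A (0.29) was the marker that did not pass. The list took 1.19% to 1.25% of reads in males and 0.501% to 0.685% in females, and the lowest share was that of female replicate 3. Such shares are of all reads, the yolk genes included. On that scale the median of all genes was 0.46 higher in males, so shares lean towards males. Of the 23, 21 were called higher in males without the 3 libraries that stood apart.

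Most genes of photoreceptors were higher in males as well. Of 36 tested, 28 were higher in males and 2 in females, with a median of 0.50, and the list took 8.77% to 9.48% of reads in males and 3.60% to 5.50% in females. norpA, the phospholipase C of phototransduction, stood at 33451 to 39842 in males and 19037 to 24760 in females (log2 0.73, SE 0.08). The G protein subunit gene Ggamma30A (0.63), the extracellular matrix gene eys (0.60) and the rhodopsin phosphatase gene rdgC (0.41) were also higher. The opsins were picked out after their values were seen. Rh6 stood at 18318, 15754, 21826, 15765 and 17466 in males and at 4459, 6165, 7743, 10504 and 4828 in females (log2 1.47, SE 0.19, adjusted p = 1.37e-05). The groups did not overlap, and female replicate 4 was the highest of its group. Rh5 differed by 1.10 (SE 0.31), but its groups overlapped, with 1571 in female replicate 4 against 394 to 1066 in the other females and 1220 to 2092 in males. The outer photoreceptor opsin ninaE differed by 0.56 (SE 0.15), Rh4 by 0.56 (SE 0.09) and Rh3 by 0.25 (SE 0.09). Whether the opsins differ among themselves was not tested. The call of Rh3 was lost without male replicate 2, 3, 4 or 5 or female replicate 1, 2 or 5. Without the 3 libraries that stood apart, 21 of the 36 genes were called higher in males, and ninaE (0.52, adjusted p = 0.0861) and Rh5 (0.86, adjusted p = 0.0645) no longer passed. The gene retinin, of a corneal lens protein (-0.82), and the scavenger receptor gene santa-maria (-0.45), which takes up carotenoids, were higher in females.

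Glial markers were mixed. Of 20 tested, 8 (40%) were higher in males and 6 (30%) in females, against 25.5% and 25.3% of all genes. Without the 3 libraries that stood apart the counts were 6 and 5. The median was 0.20, and shares of reads overlapped between the groups (0.408% to 0.444% in males, 0.406% to 0.459% in females). The trehalose transporter gene Tret1-1 of the blood-brain barrier (-1.41, SE 0.10), the chitinase-like Idgf6 (-1.18), the G protein regulator gene loco (-0.65) and the engulfment receptor gene drpr (-0.56) were higher in females. The glial transcription factor gene repo (0.87, SE 0.12), picked out after its values were seen, was higher in males. Idgf6 and drpr are also known from fat body or blood cells.

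Fat body and blood cell markers were higher in females. Of 16 fat body markers 12 passed the filter on low values, and 12 of these were higher in females and 0 in males (19.9% of all genes were higher in females without overlap, and 11 of these 12), with a median of -1.15. Lsp2 stood at 10811, 12593, 9500, 11626 and 10242 in males and at 46446, 42259, 33215, 34569 and 38485 in females (log2 -1.83, SE 0.10, adjusted p = 2.46e-09). The groups lay far apart. The apolipoprotein gene apolpp (-1.63), chosen with its values in view, the fatty acid synthase gene FASN1 (-1.28), the lipid droplet protein gene Lsd-1 (-1.11) and the triglyceride lipase gene brummer (bmm, -1.07) were also higher. The list took 1.18% to 1.29% of reads in males and 1.78% to 2.45% in females, with female replicate 4 the lowest of them. Of 14 haemocyte markers 12 were higher in females and 1 in males, with a median of -1.19. They included the phagocytosis receptor gene NimC1 (-1.78, SE 0.11), Glt (-1.60), and the collagen genes Col4a1 (-1.58) and vkg (-1.30), which fat body expresses too. Without the 3 libraries that stood apart the counts higher in females stayed at 12 in each of these lists.

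Markers of the remaining tissues were given by few tested genes or by counts in both directions. Of 24 muscle genes 4 were higher in males and 5 in females (median -0.08), with flight muscle actin Act88F at 1.00 and the LIM protein gene Mlp84B at -0.90. The muscle list took 0.511% to 0.626% of reads in males and 0.390% to 0.506% in females. At the same total with yolk genes its median was 0.36, against 0.46 for all genes. Of 26 olfactory and taste genes 3 were higher in males and 6 in females. Obp44a (1.26), an odorant-binding protein known from glia, was the largest of the 3, and Obp83ef (-1.52) and Obp99c (-1.43) followed Obp99a among the 6. Of 17 cuticle and tracheal genes 5 (29.4%) were higher in each sex, near the 25.5% and 25.3% of all genes, with the chitin-binding obst-A at 1.49. Of 5 gut genes 3 were higher in females, the amylases Amy-p (-0.91) and Amy-d (-0.84) and the protease gene Jon44E (-0.87). Of 9 yolk and eggshell genes 5 were higher in females, and apart from the yolk proteins these were yellow-g (-1.28) and Cp7Fb (-0.43). Among 14 germline genes 4 were higher in females, exu (-1.69), osk (-1.90), otu and swa, and 3 in males, png (1.79), orb (0.62) and grk. The otu level was 9.77, 67.9, 14.8, 14.6 and 100.1 in female replicates 1 to 5, high in the 2 with ovary transcripts, and the part of ovary RNA in its difference was not tested. Without the 3 libraries that stood apart 1 germline gene was higher in females and 3 in males. Est-6 (-0.47) and Acp63F (-1.01), genes known from the male tract, were higher in females, and the other accessory gland genes (Acp) listed in both tables had at most 25 reads in any library. Of the 3 male tract genes tested, 2 were called, and 1 without the 3 libraries that stood apart.

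**Figure D2:**
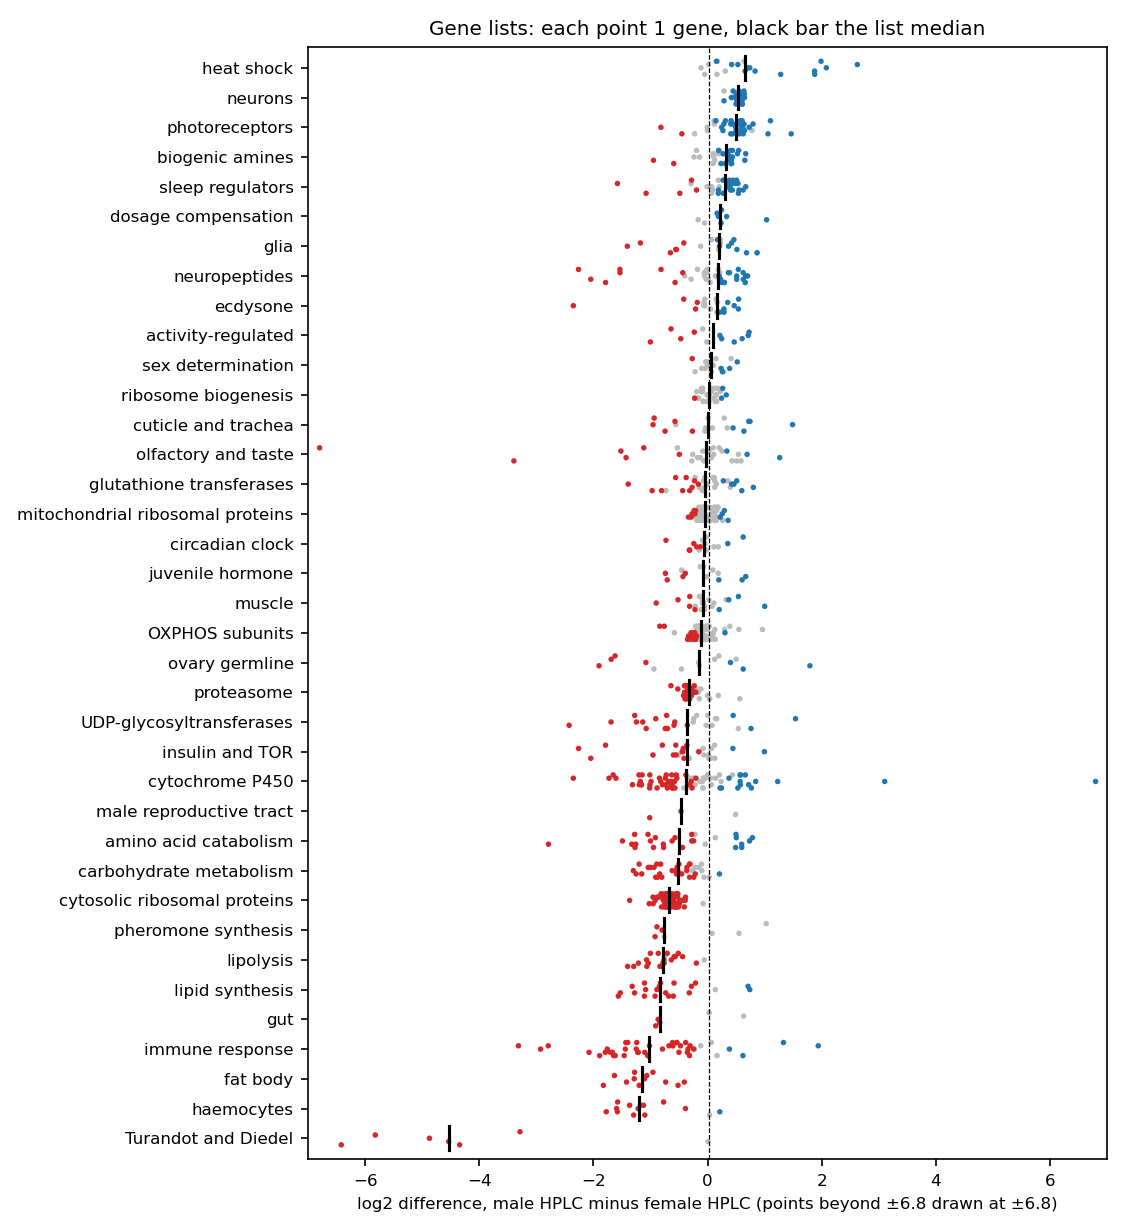
Log2 difference (male minus female HPLC) of each tested gene of 37 lists, blue where higher in males past the threshold, red where higher in females and grey otherwise, with a black bar at each list's median and a dashed line at the median of all genes. Heat shock, neuron and photoreceptor lists lie to the right, and immune, fat body, haemocyte and Turandot lists to the left.

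Neuropeptide and hormone genes divided between the sexes. Of 39 tested, 16 were higher in males and 8 in females, with a median of 0.19, and 11 and 8 without the 3 libraries that stood apart. The insulin-like peptides led the 8. Ilp3, made in insulin-producing neurons, stood at 120, 116, 73.6, 117 and 92.0 in males and at 543, 570, 497, 379 and 496 in females (log2 -2.26, SE 0.14, adjusted p = 1.03e-08). Ilp5 of the same neurons stood at 202 to 359 in males and 878 to 1051 in females (log2 -1.79, SE 0.15). Neither pair of groups overlapped. Ilp2, also of these neurons and picked out after its values were seen, differed by less (-0.43, SE 0.11, and 0.01 at the same total of reads with yolk genes), and its groups overlapped, with 2942 to 4161 in males and 3832 to 5641 in females. Ilp6, the insulin-like peptide of fat body and glia, stood at 1072 to 1253 in males and 4490 to 5387 in females, 4.14-fold higher (log2 -2.05, SE 0.07, adjusted p = 2.14e-11). Nplp2 (-1.54, SE 0.07) and CCHa2 (-1.54, SE 0.13), a nutrient-dependent hormone of fat body and gut, were also higher in females. Those higher in males included Hug (0.67), a peptide of feeding circuits, the tachykinin gene Tk (0.66), Pdf (0.62, SE 0.08), the clock neuron peptide that promotes wakefulness, and sNPF (0.51, SE 0.05), a feeding and sleep peptide.

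**Figure D3:**
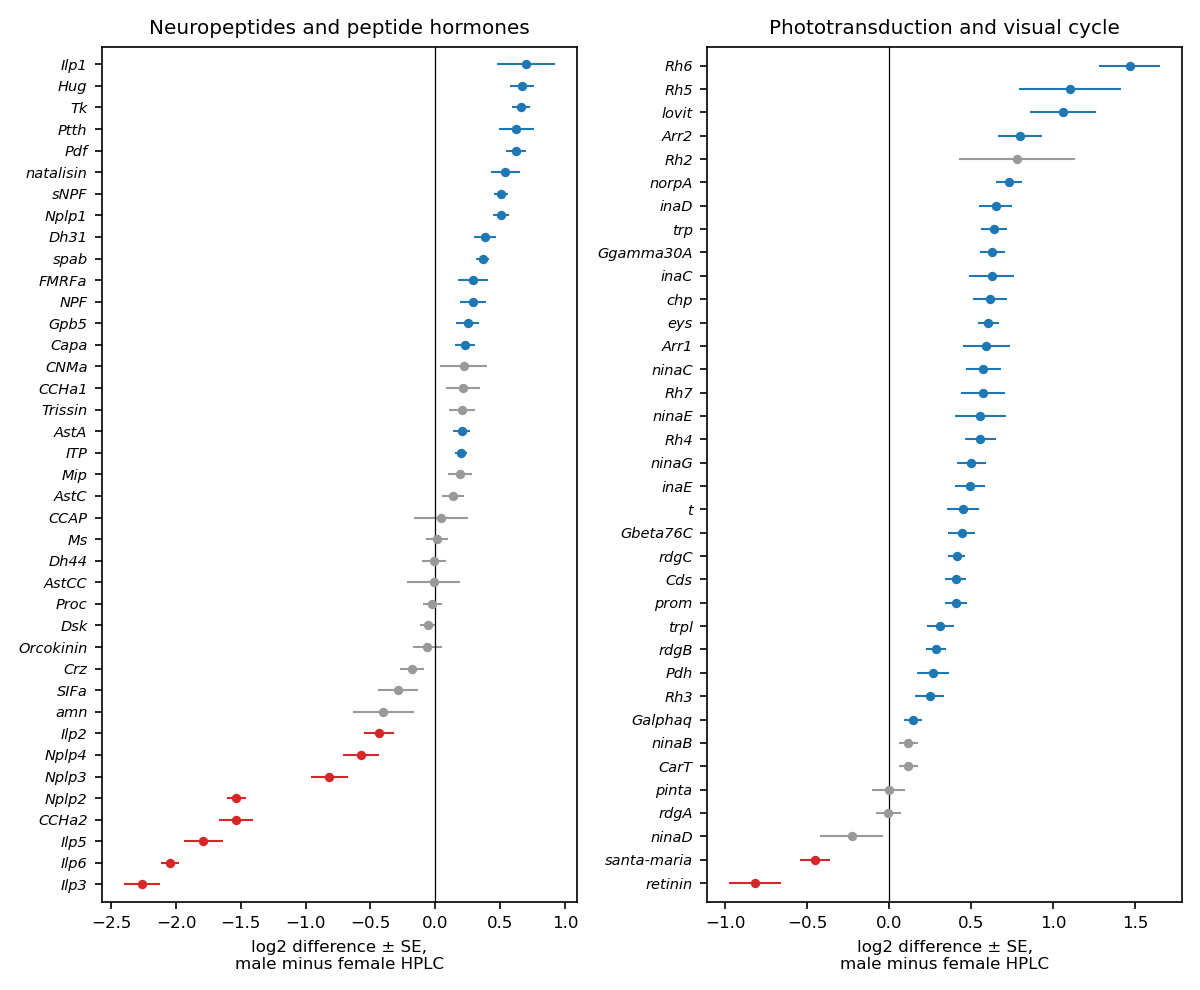
Log2 difference with its SE (male minus female HPLC, n = 5 libraries per group) of 39 neuropeptide and hormone genes (left) and 36 photoreceptor genes (right), blue where higher in males past the threshold, red where higher in females and grey otherwise. Ilp3, Ilp6, Ilp5, CCHa2 and Nplp2 lie lowest among the peptides, and Rh6 and Rh5 highest among the photoreceptor genes.

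Genes of biogenic amines and of sleep were more often higher in males than in females, as were the neuron markers given above, whose part in these values was not tested. Of 30 amine genes 18 were higher in males and 2 in females, with a median of 0.33, and 15 and 2 without the 3 libraries that stood apart. The arylalkylamine acetyltransferase gene speck, which inactivates monoamines, stood at 2441 to 2634 in males and 1549 to 1651 in females (log2 0.67, SE 0.05, adjusted p = 3.41e-08). The dopamine and ecdysteroid receptor gene DopEcR was higher in males by 0.54. The 2 genes higher in females were Hn, phenylalanine hydroxylase (-0.95), and ple, tyrosine hydroxylase (-0.59), which both act upstream of dopamine and outside the nervous system. Of 35 sleep regulators, some of which are also on the peptide and amine lists, 23 were higher in males and 5 in females, with a median of 0.30. Among those higher in males was the acetylcholine receptor gene nAChRalpha4, also known as redeye (0.49, SE 0.06), and among those higher in females Egfr, the receptor of a sleep-promoting signal (-1.08, SE 0.08). Without the 3 libraries that stood apart the sleep list had 17 higher in males and 3 in females. Of the 5, CycA was picked out after its values were seen: it stood at 20.6 to 41.5 in males and at 39.1, 184, 41.9, 53.2 and 248 in females. The 2 female libraries with ovary transcripts, replicates 2 and 5, were the high ones, and the part of ovary RNA in the CycA difference of -1.58 was not tested.

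Circadian genes were called in both directions. Of 18 genes 2 were higher in males, Pdf and the transcription factor gene Clk (0.35, SE 0.10), and 6 in females, with a median of -0.06 that turned to 0.17 and 0.38 at the same total of reads without and with yolk genes. The 6 were led by Pdfr, the PDF receptor gene (-0.73, SE 0.07), whereas its ligand gene was higher in males. Without the 3 libraries that stood apart the counts were 2 in each sex. Among the rest of the 6 were the repressor genes vri (-0.32) and per (-0.31). Of 12 activity-regulated genes 6 were higher in males, with CG14186 at 0.71, and 4 in females, with Arc1, which encodes a capsid-like protein that carries RNA between cells, 2.01-fold higher in females. The time of day of collection is not given in the sources used here.

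Immune genes were higher in females. Of 45 tested, 36 were higher in females and 4 in males, with a median of -1.02. Of the Bomanins, short peptides of the Toll pathway, BomBc2 was at 7023 to 7781 in males and 22731 to 29027 in females (log2 -1.79, SE 0.07, adjusted p = 6.76e-11). BomT1 differed by -2.79, BomS2 by -1.65 and BomT2 by -1.43. PGRP-SC2, a peptidoglycan amidase gene, had the largest difference of the list (-3.32) and was picked out for it. The 4 genes higher in males were AttD (1.94), Drsl4 (1.33), Drsl5 (0.62) and PGRP-LE (0.38). The fat body and haemocyte markers given above were higher in the same libraries, and their part in these values was not tested.

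Turandot genes and Diedel, secreted factors of the stress and JAK-STAT responses, had the lowest median of the lists. Of 7 genes tested 6 were higher in females and 0 in males, with a median of -4.54. TotA stood at 2487, 2045, 2153, 1283 and 3077 in males and at 64655, 50277, 27231, 31015 and 54876 in females (log2 -4.35, SE 0.24, adjusted p = 3.25e-09). The groups lay apart, and both varied by more than 2-fold within. Female replicates 3 and 4 were the lowest females for TotA, TotC, TotM and TotX, and male replicate 4 the lowest male for TotA, TotC and TotM. Diedel ranged from 1153 to 5457 in females and from 15.4 to 52.4 in males. Socs36E, a direct target and inhibitor of JAK-STAT signalling, differed by 0.01 and did not pass.

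Heat shock genes went the opposite way. Of 20 tested, 13 were higher in males and 0 in females, with a median of 0.65. Hsp60A, the mitochondrial chaperonin, stood at 8088 to 8504 in males and 5397 to 6146 in females (log2 0.53, SE 0.05). DnaJ-1, a co-chaperone of the inducible response, differed by 0.83 (SE 0.14). Of the inducible Hsp70 genes, Hsp70Bb was at 70.9 to 165 in males and 10.8 to 34.5 in females and Hsp70Aa at 57.1 to 181 and 24.6 to 49.0 (log2 1.88). Reads of these near-identical copies may be split between them by the authors' counting, so their separate values are uncertain.

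Genes of fat and sugar metabolism were higher in females, together with the fat body markers. Of 21 lipid synthesis and storage genes 18 were higher in females and 2 in males, with a median of -0.83. The lipid droplet protein gene Lsd-2 stood at 6580 to 8052 in males and 20687 to 22841 in females (log2 -1.56, SE 0.06, adjusted p = 1.40e-10). The elongase gene Baldspot (-1.53), the acyltransferase gene Agpat3 (-1.32) and the acyl-CoA synthetase gene bubblegum (bgm, -1.11) were higher too. Of 22 genes of lipolysis and fatty acid oxidation 20 were higher in females and 0 in males (median -0.77), with whd, carnitine palmitoyltransferase, at -1.40 (SE 0.06), Etf-QO at -1.21 and yip2 at -1.07. Of 7 genes of pheromone synthesis 3 were higher in females, the desaturase gene Desat1 (-0.92), FASN2 (-0.89) and the elongase gene bond (-0.80).

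Of 35 carbohydrate genes 27 were higher in females and 1 in males (median -0.52). Hex-C, the hexokinase of fat body, stood at 2955 to 3445 in males and 6577 to 10210 in females (log2 -1.30, SE 0.09). Lactate dehydrogenase (Ldh, 2.01-fold higher), Pgd of the pentose phosphate pathway (-0.89) and the gluconeogenic fbp (-0.88) were also higher, and Hex-A, the hexokinase of muscle and other tissues, was the 1 gene higher in males (0.21). Of 28 genes of amino acid breakdown 18 were higher in females and 7 in males (median -0.51). Those higher in females included argininosuccinate synthase (Ass, -2.79), ornithine aminotransferase (Oat, -1.49) and the one-carbon enzyme Shmt (-1.26, SE 0.09). Of the 7 higher in males, the 3 that act in tyrosine breakdown, Faa (0.79, SE 0.05), hgo (0.74) and Hpd (0.60), were led by Faa, fumarylacetoacetase, at 1601 to 1794 in males and 915 to 1030 in females. Without the 3 libraries that stood apart the counts higher in females were 17, 18, 24 and 16 for lipid synthesis, lipolysis, carbohydrate and amino acid genes.

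Of 27 genes of insulin and TOR signalling 14 were higher in females and 2 in males, with a median of -0.36 that turned to 0.08 at the same total with yolk genes. Beside the peptides named above, Lst (-0.96), limostatin, which limits insulin release, and Thor (-0.79), the translation repressor downstream of TOR, were higher in females. Sdr, a secreted decoy of the insulin receptor, was higher in males (1.00, SE 0.22). Tor (0.02) and the receptor substrate gene chico (-0.06) did not pass, nor did the receptor gene InR (-0.32). All of these but Lst and the peptides were picked out after their values were seen.

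Of 13 juvenile hormone genes 3 (23.1%) were higher in males and 4 (30.8%) in females, near the 25.5% and 25.3% of all genes. Their median of -0.07 turned to 0.16 and 0.37 at the same total without and with yolk genes. The counts were 1 and 4 without the 3 libraries that stood apart. The receptor gene gce (-0.71) was higher in females and the hormone's target Kr-h1 (0.67) in males. Of 20 ecdysone genes 7 were higher in males and 4 in females, or 5 and 3 without the 3 libraries that stood apart. The largest difference was in Cyp18a1, which inactivates ecdysone. It stood at 426 to 505 in males and at 2250 to 2656 in females, 5.12-fold higher (log2 -2.35, SE 0.06, adjusted p = 3.79e-12). The early response gene Eip74EF was higher in females as well (-0.42), a call lost at the same total without yolk genes (-0.18) and turned to 0.02 with them, and Eip78C was higher in males (0.54).

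Detoxification families were mixed. Of 75 cytochrome P450 genes 39 were higher in females and 15 in males (median -0.37, which turned to 0.06 at the same total with yolk genes), with Cyp6v1 at -1.73. Cyp4d21, Cyp313a1 and Cyp6a8 (1.23) were the largest of the 15. Of 25 UDP-glycosyltransferases 13 were higher in females and 3 in males (median -0.36, or 0.09 in that scaling), with Ugt302E1 at -1.25 and Ugt37B1 at 1.54. Of 31 glutathione transferases 10 (32.3%) were higher in females and 6 (19.4%) in males, against 25.3% and 25.5% of all genes, with GstT3 at -1.39 and GstE5 at 0.80. Without the 3 libraries that stood apart, 33 cytochrome P450 genes were higher in females and 13 in males. For UDP-glycosyltransferases these counts were 10 and 3, and for glutathione transferases 9 and 4.

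Cytosolic ribosomal protein genes were higher in females almost without exception. Of 82 tested, 81 were higher in females and 0 in males, with a median of -0.67, and 78 and 57 stayed higher in females at the same total of reads without and with yolk genes. RpS29 stood at 17030 to 18278 in males and 33752 to 35446 in females (log2 -0.95, SE 0.06, adjusted p = 5.52e-09). RpL41 (-0.96) and RpLP1 (-1.02) were close to it. The list took 7.17% to 8.26% of reads in males and 8.15% to 9.58% in females, so in shares of all reads the groups overlapped slightly. Of 31 ribosome biogenesis genes 3 were higher in males and 1 in females (median 0.03), and 1 and 0 without the 3 libraries that stood apart. At the same total of reads without and with yolk genes 19 and 29 of them were higher in males and 0 in females. Of all genes, 5068 of 9953 and 6985 of 9966 were called higher in males in these 2 scalings, and 1487 and 982 in females. Of 71 mitochondrial ribosomal protein genes 4 were higher in males and 6 in females (median -0.05), and 0 and 3 without the 3 libraries. At the same total without and with yolk genes 31 and 67 of these were higher in males and 0 in females, with medians of 0.18 and 0.39. Both counts are to be read beside those of all genes just given. Of 69 nuclear-encoded OXPHOS genes 15 were higher in females and 1 in males, with a median of -0.11 that turned to 0.12 and 0.32 at the same total without and with yolk genes. In those scalings 0 OXPHOS genes were higher in females, and 17 and 61 in males. Of 36 proteasome genes 28 were higher in females and 0 in males (median -0.32, which turned to 0.12 with yolk genes in the total), with Rpn6 at -0.64 and Rpn11 at -0.52. At the same total without yolk genes 4 of the 36 were higher in females and 0 in males, and with yolk genes 1 and 13. Without the 3 libraries 24 proteasome genes were higher in females.

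By chromosome, X-linked and autosomal genes had close medians. The median difference was -0.02 over 1653 X-linked genes and 0.03 over 8274 autosomal genes. Of the X-linked genes 416 and 494 were called higher in males and in females, 25.2% and 29.9%, against 25.6% and 24.4% of autosomal genes. At 2-fold or more 43 of the 1653 X-linked genes were higher in males and 90 in females. Of the 8274 autosomal genes 68 and 441 were. As a share, more X-linked than autosomal genes were thus 2-fold higher in males. The fourth chromosome, small and mostly heterochromatic, had a median of 0.13 over 90 genes, and 40.0% of its genes were higher in males and 11.1% in females. These are descriptions without a test, and scaling shifted every chromosome together.

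**Figure D4:**
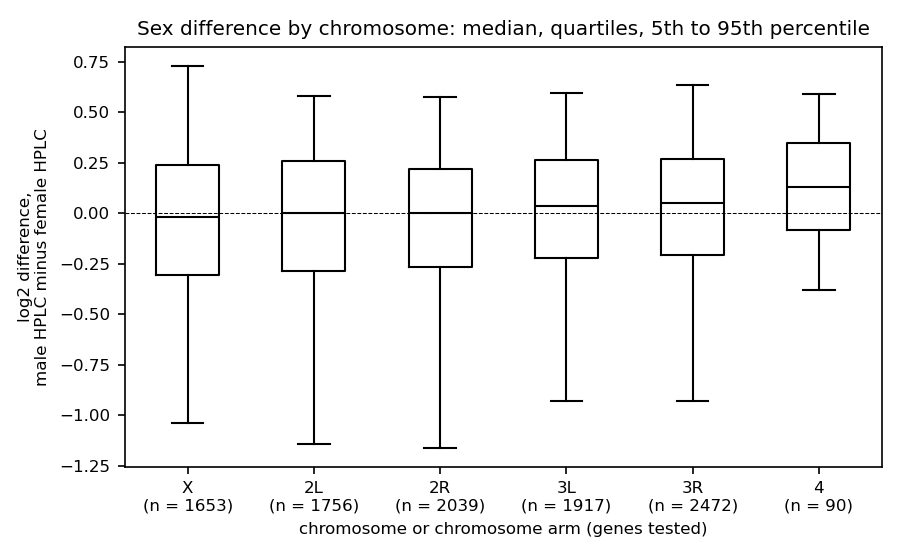
Log2 difference (male minus female HPLC) of genes tested on each chromosome or arm, with boxes from the lower to the upper quartile, a line at the median and whiskers from the 5th to the 95th percentile. The X chromosome's median of -0.02 lies close to those of the large autosomal arms, and that of chromosome 4 lies higher at 0.13.

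A final comparison asked how far the same difference was seen in the other 10 libraries, on the LPHC diets, which differ between the sexes in both ratio and concentration. In 1 fit over all 20 libraries, 4994 genes differed between the sexes on HPLC and 7656 of 10362 on LPHC (73.9%). Of the 4994, 3899 were called in the same direction on LPHC, which is 78.1% of the HPLC calls and 50.9% of the LPHC calls, while 368 were called in the opposite direction and 727 were not called. Of 595 genes at least 2-fold higher in females on HPLC, 518 (87.1%) were also called higher in females on LPHC. Of 129 at least 2-fold higher in males, 54 (41.9%) were also called higher in males, and 37 were called higher in females. These percentages are to be read beside the 73.9% of all genes called on LPHC in either direction. The share of all genes called in each direction there was not counted, so how far the percentages lie from it is not known. The difference itself changed between the diets for 5414 genes (52.2%), 2793 above 0 and 2621 below.

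For several genes no change of the sex difference between the diets was detected. Levels on LPHC are from the scaling over all 20 libraries. The difference of msl-2 was 1.02 on HPLC and 1.04 on LPHC, with -0.03 (SE 0.10, adjusted p = 0.837) between them. For Yp1, Yp2 and Yp3 the adjusted p was 0.339, 0.595 and 0.0563, and for Cyp4d21 it was 0.145 (0.99, SE 0.56). Its male mean on LPHC was 216 ± 33.6 (SD). The SE of that gap was 1.43 for Yp1 and 1.30 for Yp2, so a change of several-fold was not detectable.

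Other sex differences changed between the HPLC and LPHC libraries, where males and females went through different changes of diet. The difference of fit was -4.72 on HPLC and -10.74 on LPHC, where its male level was 19.0 ± 8.88 (SD) and its female level 30202 ± 4006. The gap between the diets was 6.02 (SE 0.38, adjusted p = 1.04e-11). Obp99a (1.48, SE 0.39) and CG10962 (1.49, SE 0.23) likewise differed more strongly on LPHC. Genes high in males went different ways. The difference of sxe2 was 3.35 on HPLC and 1.76 on LPHC, that of Cyp313a1 3.09 and 1.49, and that of takeout 1.61 and -0.11, which did not pass on LPHC. In contrast Muc14A was at 3.47 and 4.37, with a gap of -0.90 (SE 0.37, adjusted p = 0.0464), and for brv3, at 3.54 and 3.83, no change was detected (adjusted p = 0.625). Of the other genes among the 12 largest on HPLC, CG34227 (2.22 and -4.73), Hsp70Bb (2.61 and -1.28) and CG11854 (2.33 and -0.63) were called higher in females on LPHC. The difference of Ilp3 was -2.28 on HPLC and -0.21 on LPHC, with a male LPHC mean of 438 ± 97.4 and a female one of 500 ± 45.5. The gap was -2.07 (SE 0.20, adjusted p = 1.37e-08).

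Stress factors showed the opposite tendency, with a wide spread. TotC differed by -4.89 on HPLC and by -0.76 on LPHC, where males ranged from 585 to 17468 and females from 5229 to 7771. The gap for TotC was -4.13 (SE 0.75), for TotA -3.24 (SE 0.66) and for Diedel -3.50 (SE 1.21). On LPHC the male libraries of these genes spanned the female range.

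The 5 genes with the smallest p for a gap above 0 were CG10621 (6.01), CG16898 (8.99), CG1979 (8.05), Lsp2 (12.50) and malic enzyme, Men (3.32). For Lsp2 the male level on LPHC was 0.876 ± 0.861, against 35720 ± 4766 in females, while on the 1:1 diets the sexes differed 3.56-fold. CG16898 was higher in males on HPLC (0.84) and higher in females on LPHC (-8.15), with a male LPHC mean of 53.1 and a female one of 15101. Among those with the smallest p for a gap below 0 were phu (-7.04), the kainate receptor gene Grik (-1.58), the succinate dehydrogenase assembly factor gene Sirup (-2.53) and the odorant receptor gene Or63a (-1.49). The call of phu on HPLC (-0.53) was lost without male replicate 3 or 4 or female replicate 2 or 3.

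**Figure D5:**
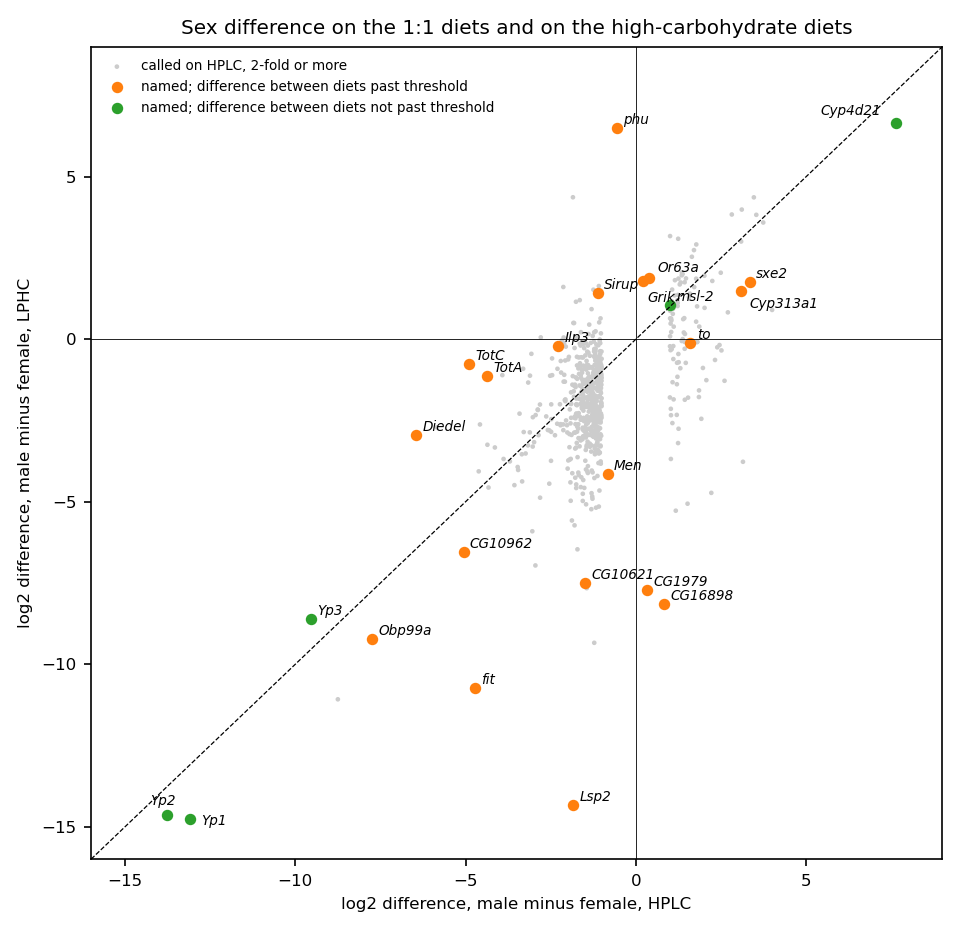
Log2 difference between males and females on HPLC (horizontal axis) and on LPHC (vertical axis), from the fit over 20 libraries, for 24 named genes (orange where the difference changed between diets past the threshold, green where it did not) and for genes called with 2-fold or more on HPLC (grey). On the dashed line both are equal: msl-2 lies on it, fit and Lsp2 lie far below it and phu far above it.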

How the data were processed

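The submitters' processing notes name HISAT2 as aligner, with no version. Counting tool, build, gene models and strand use were not given in the sources used, so overlapping and antisense genes are uncertain and coordinates are left out. What the authors deposited is a signal for every gene in every library, a normalised count, in separate tables for males (12206 genes) and females (12015 genes). Within a library every signal was a whole multiple of the value of 1 read: 100% were whole to within 0.01, and dividing by that value gave back the reads.

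The 11780 genes of both tables were joined. Reads were divided by median-of-ratios size factors over the 10 libraries, computed without Yp1, Yp2 and Yp3. Genes with a level of 10 or more in at least 5 libraries (9945) were tested on log2(level + 1) by limma-trend (limma 3.58.1, R 4.3.3), 2-sided, at a Benjamini-Hochberg adjusted p under 0.05. The LPHC comparison and the difference between diets came from 1 such fit over all 20 libraries. edgeR 4.0.16 and DESeq2 1.42.0 were run on the recovered reads as alternatives, and called 5067 and 5170 genes. The other alternatives were further scalings, pseudocounts and filters, robust moderation, a block on replicate number, and each library left out. Leaving out together the 3 libraries that stood apart was added after the data were seen. No pair of libraries of a group agreed within sampling noise, with a smallest chi-square per degree of freedom of 7.51. It was 7.51 to 10.5 between female replicates 1, 2 and 5, and 25.5 to 49.6 for pairs with female replicate 3 or 4. Male pairs had 9.46 to 18.9.

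Tested on simulated reads of this comparison (9895 genes), the fit recovered 48%, 86%, 96% and 100% of 50 genes each changed by log2 0.32, 0.58, 1 and 2, and called 0.155% of 9695 unchanged genes. Far fewer genes changed there than were called in the data. The changed genes were drawn from those above a minimum level. Every gene had the spread typical of its level, and no library was made to stand apart. Recovery and false calls in the data may therefore be less favourable.

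The comparison, the gene lists and the alternatives were chosen with earlier results of these data known. Genes are named by a rule: the 12 largest differences in each direction among genes past the threshold whose groups do not overlap and whose mean is 50 or more in the higher group, all sex determination, dosage compensation and sex-biased head genes, up to 4 members of each other list with the smallest p, and the 5 smallest p in each direction for the difference between diets. Of the last, 1 gene is not reported here. Other list members named were picked out after their values were seen. Lists are described by counts and medians, without a test. Chromosomes were taken from the RefSeq gene table, in which 12412 of 12441 gene names were matched. Genes listed for 1 sex (426 for males, 235 for females) enter no test. No sequences are shown. Python 3.11.15 with pandas 2.3.3 was used for the rest.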

Additional observations from a re-analysis of the deposited data

Results flagged for a closer look

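Of 284 sets of 5 libraries checked, 26 held a library far from the other 4, where chance gives about 1 in 20. The sets were both groups of 141 of the genes named here and of the yolk protein share. Shares of the other lists were not checked. In males, replicate 4 stood apart for Yp1 (11008), Yp2 (6549), Yp3 (6061), CG10814 (325), Obp99a (22.9), sNPF (4613) and the yolk protein share of reads (0.118%). It was the highest library in each case. Male replicate 3 was the highest for her (704) and CG14661 (2940) and the lowest for Sirup (4132). Male replicate 5 was the highest for Ass (56.1) and exu (115) and the lowest for snf (533). Male replicate 2 was the lowest for BomT2 (691) and the highest for phu (192), and male replicate 1 was the highest for Kr-h1 (644).

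In females, replicate 3 stood apart for Yp1 (1100080), fit (26933), CG7763 (1241), BomS2 (9635), Shmt (67477), Rpn6 (4547) and Paics (74788), being the highest each time, and for msl-2 (622), being the lowest. Female replicate 4 was the lowest for Ass (157) and whd (14191).

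The difference between males and females itself differed between the 1:1 and the high-carbohydrate diets for 19 of 24 genes compared, by the limma contrast over 20 libraries. Of the 24, CG10621, CG16898, CG1979, Lsp2, Men, phu, Grik, Sirup and Or63a were named for their small p in this same contrast. Their passing was fixed in advance, and 52.2% of all 10362 genes passed, so the count of 19 supports nothing on its own. As the HPLC minus the LPHC difference in log2, it was above 0 for Lsp2 (12.50), CG16898 (8.99), CG1979 (8.05), fit (6.02), CG10621 (6.01), Men (3.32), to (1.71), Cyp313a1 (1.60), sxe2 (1.59), CG10962 (1.49) and Obp99a (1.48). It was below 0 for phu (-7.04), TotC (-4.13), Diedel (-3.50), TotA (-3.24), Sirup (-2.53), Ilp3 (-2.07), Grik (-1.58) and Or63a (-1.49). The diets of the sexes differ in concentration and, on LPHC, in ratio, so sex and diet cannot be told apart in these values.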

How the results depend on the processing

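Scaling changed the results most. At the same total of reads with yolk genes 7967 genes were called, 6985 higher in males and 982 in females, and without yolk genes 5068 and 1487; leaving out 1 library at a time gave 4560 to 5078 calls, 2233 to 2556 higher in males and 2327 to 2522 in females. Leaving out 3 libraries together gave 3973 calls. The alternatives were followed for 141 of the genes named here. Of these, 116 kept their side of the threshold under every alternative in which they were tested, and their direction wherever they passed. A change of sign was not counted where a gene passed in neither fit. With 1 library left out CG14661, for example, ranged from -0.003 to 0.16. Other genes named, such as repo, CycA, otu, Sdr and PGRP-SC2, were not followed in this way. With yolk genes in the total, signs turned for the medians of X-linked genes (0.42), sex-biased head genes (0.16), circadian (0.38), insulin and TOR (0.078), juvenile hormone (0.37), OXPHOS (0.32), proteasome (0.12), P450 (0.057), UDP-glycosyltransferase (0.086), muscle (0.36), mitochondrial ribosomal (0.39), glutathione transferase (0.39), germline (0.27) and olfactory and taste genes (0.41), and for JIL-1 (0.28), Clamp (0.39), tra (0.40), tra2 (0.44), dsx (0.41), snf (0.17), Obp99b (0.37), Cyp6a20 (0.37), Ilp2 (0.0066) and Eip74EF (0.023). Without yolk genes they turned for X-linked (0.22), circadian (0.17), juvenile hormone (0.16), OXPHOS (0.12), muscle (0.15), mitochondrial ribosomal (0.18), glutathione transferase (0.18), germline (0.07) and olfactory and taste genes (0.21), Clamp (0.18) and tra2 (0.23), and at the same upper quartile for X-linked (0.020) and olfactory and taste genes (0.02). These scalings add 1 constant per library, so relative to all genes the values barely moved. Without a filter the male tract median was 0.20 and the gut median 0.16, and in the fit over 20 libraries 0.22 and 0.0089; the cause was not tested. The replicate number as a block gave 5004 calls, Sxl passing (adjusted p = 0.031) and msl-3 not (0.0642). Same-numbered libraries deviated from their group means with correlations of 0.12, 0.09, 0.25, -0.19 and -0.04. The highest correlation of each male replicate with a female library of another number was 0.09, 0.10, 0.20, 0.14 and 0.17. So few values cannot decide whether libraries of the same number share a batch.

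A gene that did not pass may still differ. For the sex difference in LPHC libraries edgeR called 7728 genes, against 7656, and for the difference of the sex difference between HPLC and LPHC 5395, against 5414.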

Other observations

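Genes of de novo purine synthesis were higher in females. The list was written after values of its members had been seen and supports nothing on its own. Of 13 genes tested 10 were higher in females and 1 in males, with a median of -0.74, and the list took 1.08% to 1.40% of reads in males and 1.67% to 2.11% in females. Prat2, which catalyses the committed step, stood at 15431 to 17998 in males and at 43427 to 67820 in females (log2 -1.73, SE 0.10). Further members were the one-carbon enzyme gene pug (-1.54, SE 0.11), Paics (-1.32, SE 0.11) and Gart (-0.86, SE 0.12). The fat body markers were higher in females as well, at 1.18% to 1.29% of reads in males and 1.78% to 2.45% in females, and the part of fat body RNA in the purine values was not tested.

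Among genes listed for males alone, CG16826 had 799 of its 804 reads in male replicate 5. The gene a5 had 0, 1, 3, 76 and 75 reads in male replicates 1 to 5. Among genes listed for females alone, nur had 6, 70, 0, 0 and 1 reads in female replicates 1 to 5.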
